A study of Mus musculus with 6 samples.

Results

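The mitochondrial ribosomal protein genes were taken as every gene name on the array that starts with Mrpl or Mrps followed by a digit. This gave 76 genes of the 34797 gene names on the array, 47 named for the large subunit and 29 for the small subunit. Where a gene had several probes, the probe with the brightest mean signal over all arrays stood for it, and no group difference entered the choice.

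The study measured gene expression in muscle satellite cells, which are resident stem cells of the muscle, on 1-colour Agilent arrays. One group was Rpt3 null, with the deletion of Rpt3 (Psmc4, an ATPase subunit of the proteasome's regulatory particle) placed in satellite cells only, and the other was control. Each group had 3 C57BL6 mice, and each mouse gave 1 array of sorted cells, whose RNA was amplified from 5 ng before labelling with Cy3. The mice's age, the floxed or null allele, the Cre driver, any inducing agent and the controls' alleles were not given in the sources used here.

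The mitochondrial ribosome translates the few messages of the mitochondrial genome, all of which encode subunits of the oxidative phosphorylation complexes. Its RNAs come from the mitochondrial genome, but every one of its proteins is encoded in the nucleus, made in the cytosol and imported. About the RNA core sit proteins with bacterial homologues, and around them lie many proteins that only mitochondrial ribosomes have. Satellite cells are mostly quiescent, with few mitochondria, and build them up when they activate and differentiate.

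No mitochondrial ribosomal protein gene passed the test between Rpt3 null and control cells. Of the 76 genes, 66 were tested (40 large, 26 small), and limma called 0 of them at a Benjamini-Hochberg adjusted p of 0.05, against 0% of all 19196 features tested. An unadjusted p under 0.05 was reached by 0 of the 66 genes, against 7.1% of all features (2.82% higher and 4.28% lower), and by 0 of the 66 with an ordinary 2-sample test. That count moved with the arrays and the model used. Without knockout array 3 it was 7 of 72 genes, all higher, against 1797 of 20550 features in either direction. With array weights it was 7 higher and 1 lower of 66 genes, against 3887 of 19196 features in either direction. With the slide row as a block, or on slide row 2 alone, knockout array 3 alone stood against the controls, so no count is given for them here. The smallest unadjusted p among them was 0.0599 (adjusted p = 0.753, limma), whereas the smallest adjusted p over all features was 0.0666. The knockout mean was above the control mean for 37 genes and below it for 29. The median difference over the 66 genes was 0.02 on the log2 scale, beside 0.04 over all features. The genes' differences ran from -0.61 to 0.57.

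The values are log2 signal relative to the array's 75th percentile, so that 0 is the level of that percentile on each array, and differences are knockout minus control. With 3 arrays a group, the median standard error of a member's difference was 0.30, close to the 0.27 of all features. The 95% interval lay within a 2-fold change in either direction for 46 of the 66 genes (69.7%), against 62.9% of all features. For the other 20 genes a change of 2-fold or more in at least one direction lay inside the interval. A difference beyond 0.5 in either direction was seen in 6 of 66 genes (9.09%), against 17.4% of all features, and a difference beyond 1 in 0 of 66, against 3.80%. An exact permutation test of a single gene cannot go below p = 0.1 with 3 arrays against 3.

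**Figure D1:**
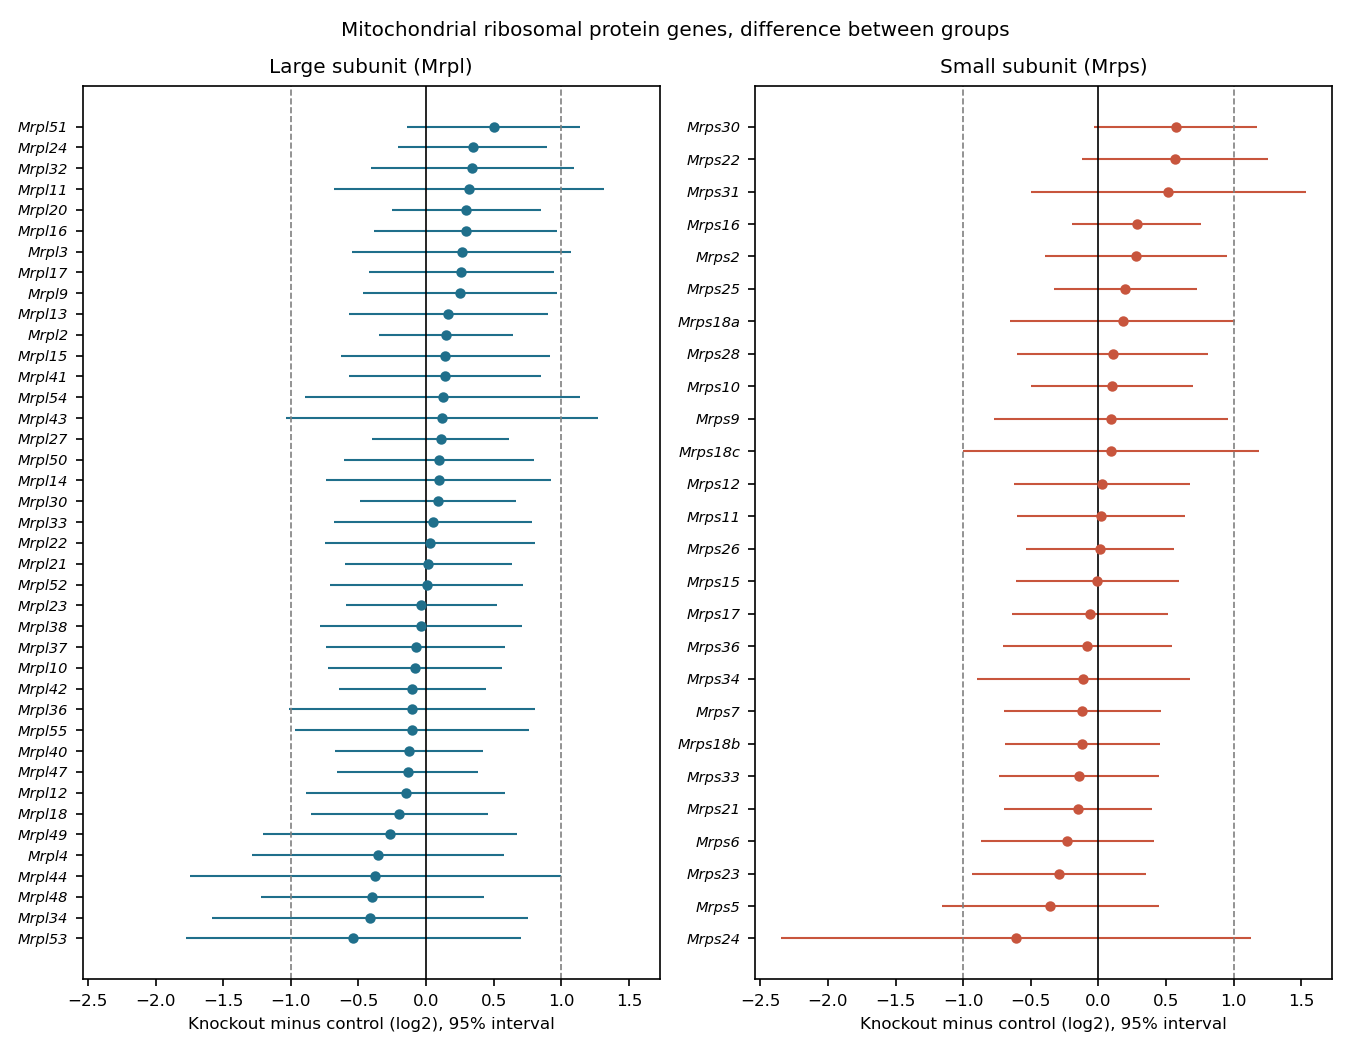
Difference between Rpt3 null and control cells (log2, x axis) for each of the 40 large-subunit genes (left) and 26 small-subunit genes (right) tested; dots are group differences, lines are 95% intervals from limma with 3 arrays a group, and dashed lines mark a 2-fold change. Every interval crosses 0, and the dots run from -0.61 (Mrps24) to 0.57 (Mrps30).

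The knockout and control values of only 2 of the 66 genes did not overlap, Mrps16 and Mrps22, both higher in the knockout. Over all features, 10.6% did not overlap (4.89% higher and 5.71% lower in the knockout), so the genes' 3.03% was below that background. Both genes encode small-subunit proteins.

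The targeted gene was lower in all 3 knockout arrays. Psmc4 measured 2.004, 2.02 and 1.52 in the knockout arrays and 2.89, 2.58 and 2.84 in the control arrays, and the groups did not overlap. The difference was -0.92 (SE 0.23, limma adjusted p = 0.404; exact permutation p = 0.1, the smallest possible). Whether this probe lies in the deleted part was not stated. The arrays differed in signal: the share of spots well above background was 58.4%, 52.0% and 44.3% on knockout arrays 1, 2 and 3, and 53.4% to 53.9% on the control arrays. Knockout arrays 1 and 2 lay in slide row 1, while knockout array 3 shared slide row 2 with the 3 control arrays. The satellite cell markers were all 11 tested, with a summed linear level of 64.8 to 87.7 in knockout and 78.9 to 84.7 in control arrays. Their median difference was -0.23, with 5 above 0 and 6 below. Among them Pax7, the defining transcription factor, had a difference of 0.17 and was well above background on 2 of 3 knockout and 3 of 3 control arrays. Myf5, a myogenic regulator, was above background on 0 of 3 knockout arrays. Its measured mean was at least 2.001-fold lower there, by the same kind of bound as for Vars2 further on (limma adjusted p = 0.181). Myf5 entered the test through the control arrays alone, which favours a lower knockout mean. Calcr, a marker of quiescent satellite cells, had a difference of -1.04 (limma adjusted p = 0.43), and its groups did not overlap. In bulk RNA such as this, fewer cells of a type and less RNA per cell cannot be told apart.

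The level of the family varied more among the knockout arrays than between the groups. For each gene the deviation from its own mean over the 6 arrays was taken, and the median deviation of the 66 genes was 0.24 on knockout array 1, 0.17 on knockout array 2 and -0.28 on knockout array 3. On control arrays 1, 2 and 3 it was 0.03, -0.17 and 0.05. The group means of these medians were 0.04 ± 0.28 (SD, n = 3) for knockout and -0.03 ± 0.12 (SD, n = 3) for control. The difference between the groups was therefore smaller than the spread between the knockout arrays, whose members stood above and below the controls.

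Knockout array 3 held the lowest of the 6 values for 28 of the 66 genes (42.4%), against 25.05% of all features. It was below all 3 controls for 30 genes (45.5%, against 30.9% of all features). In contrast, knockout arrays 1 and 2 were both above all 3 controls for 15 genes (22.7%, against 14.5%). Without knockout array 3 the median difference of the genes tested was 0.18, and without knockout array 1 it was -0.08. Among the 4 arrays of slide row 2, where knockout array 3 alone stood against the controls, it was -0.27. Slide row 1 held no control array, so no value could be had within it. Array 3 also had the fewest genes of the family well above background, 62 of 76, against 74 and 71 on knockout arrays 1 and 2 and 66 to 74 on the controls. The part of signal level and slide row in the pattern was not tested.

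**Figure D2:**
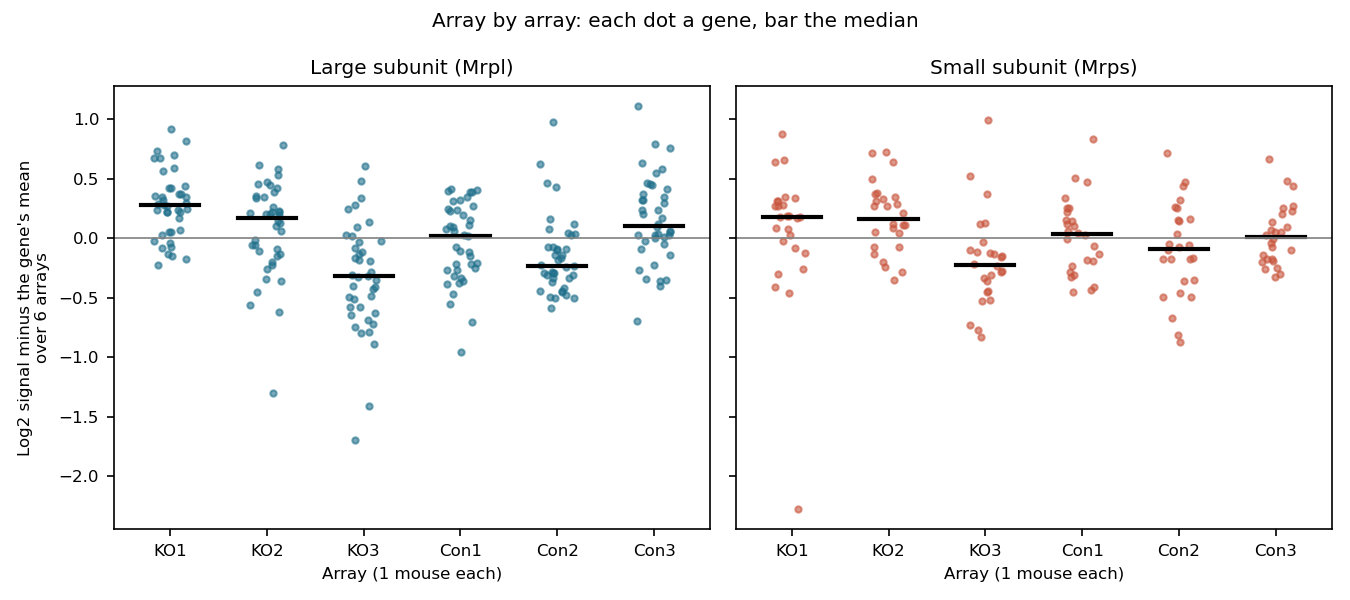
Deviation of each large-subunit gene (left) and small-subunit gene (right) from its own mean over the 6 arrays (log2, y axis), by array; each dot is a gene and each black bar the median of the array. The large-subunit medians are 0.28, 0.17 and -0.32 on knockout arrays 1 to 3 and 0.02, -0.23 and 0.11 on the controls, and the small-subunit medians follow the same order among the knockout arrays.

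By their array medians all the marker lists, that of satellite cells included, were, like the family, lowest among the knockout arrays on array 3. The medians of the satellite cell markers were 0.21, -0.07 and -0.30 on knockout arrays 1 to 3. On the controls they were -0.36, 0.31 and 0.47. For fibro-adipogenic progenitors the knockout medians were 0.05, -0.09 and -0.44, and the control medians 0.21, -0.10 and 0.04. For erythroid markers they were 1.39, 0.90 and 0.39 and then -0.06, -1.08 and -1.67. Unlike the family's, the erythroid median on knockout array 3 was thus above every control. The median deviation of the 7 endothelial markers, all tested, was 0.49, 0.66 and -0.67 on knockout arrays 1 to 3 and 1.11, -0.55 and -0.97 on the controls, and their summed linear level ran from 27.2 to 66.4 in knockout and from 26.8 to 88.1 in control arrays. The median deviation of the 5 neutrophil markers tested was 0.67, 0.63 and -0.67 on knockout arrays 1 to 3 and -0.0085, -0.68 and -0.50 on the controls, and their median difference was 0.74, with 5 of 5 above 0. Of those too dim to test, Retnlg (-1.75) and Mpo (-0.69) lay below 0, and S100a9 (1.75), Ltf (0.53) and Cxcr2 (0.34) above. Elane passed the filter through the knockout arrays alone, S100a8 and Camp through the controls alone. On knockout array 3 S100a8 and Camp were below all controls. For the 6 macrophage markers tested the array medians were 0.37, 0.20 and -0.0095 and then 0.02, -0.40 and -0.38, with a median difference of 0.45. For the 3 muscle fibre markers tested they were 0.20, 0.78 and -0.98 and then 0.37, -0.27 and 0.03. Haemoglobin genes, which mark red cells, were higher in the knockout without overlap. The other erythroid marker tested, Slc4a1, had a difference of -0.0078 and overlapping groups. Hba-a1 measured 3.05, 2.69 and 2.06 in the knockout arrays and 1.60, 0.58 and -0.0069 in the controls, a difference of 1.88 (limma adjusted p = 0.352). Hbb-b1 measured 0.00040, -1.24 and -1.10 against -1.25, -4.67 and -4.61, and was well above background on all 3 knockout arrays and 1 control array (limma adjusted p = 0.544). It entered the test through the knockout arrays alone, which favours a higher knockout mean. The summed level of muscle fibre markers, with 3 of 7 tested and Ckm and Actn3 above background on no array, was 7.48 to 17.6 in knockout and 11.8 to 13.7 in control arrays. For fibro-adipogenic progenitors, with 7 of 7 tested, it was 139.8 to 158.3 and 150.6 to 220.0. Neutrophil markers (5 of 10 tested) summed to 567.1 to 902.2 and 650.1 to 678.0, and macrophage markers (6 of 9 tested) to 701.7 to 1231 and 815.2 to 822.7; most of these sums came from the probes of Csf3r and Itgam. Csf3r, at 9.12 to 9.81 in knockout and 9.34 to 9.40 in control arrays, and Itgam, at 9.38 to 10.23 and 9.61 to 9.64, were highest on knockout array 3. The 75th percentile subtracted was lowest on that array (5.99), and its part in these values was not tested. None of these markers was at 0. The part of these markers in the members' values was not tested.

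Large-subunit and small-subunit genes differed little from one another. By name, the median difference of the 40 large-subunit genes was 0.04 (23 above 0, 17 below), and that of the 26 small-subunit genes was 0.01 (14 above, 12 below). The median of large-subunit deviations minus that of small-subunit deviations was 0.10, 0.01 and -0.09 on knockout arrays 1 to 3 and -0.01, -0.14 and 0.09 on the controls. The ranges of the groups overlapped, with a mean of 0.0044 ± 0.096 (SD, n = 3) in the knockout and -0.02 ± 0.12 (SD, n = 3) in the control. Mrps30 and Mrps18a carry small-subunit names, but their proteins sit in the large subunit, and Mrps36 encodes a subunit of the 2-oxoglutarate dehydrogenase complex and no ribosomal protein. When the genes were placed by position, the medians were 0.07 for 42 large-subunit genes and 0.01 for 23 small-subunit genes.

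Proteins with bacterial homologues and mitochondria-specific proteins were compared in the same way. The 41 tested genes with a bacterial homologue had a median difference of 0.05 (25 above 0, 16 below), and the 24 mitochondria-specific genes one of -0.01 (12 above, 12 below). A difference beyond 0.5 was seen in 1 of the 41 and in 5 of the 24. The 95% interval lay within 2-fold for 32 of the 41 (78.0%) and for 13 of the 24 (54.2%). The homologue group minus the specific group was -0.06, 0.05 and 0.11 on knockout arrays 1 to 3 and -0.18, -0.01 and 0.19 on the controls, so the knockout values lay within the range of the controls.

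**Figure D3:**
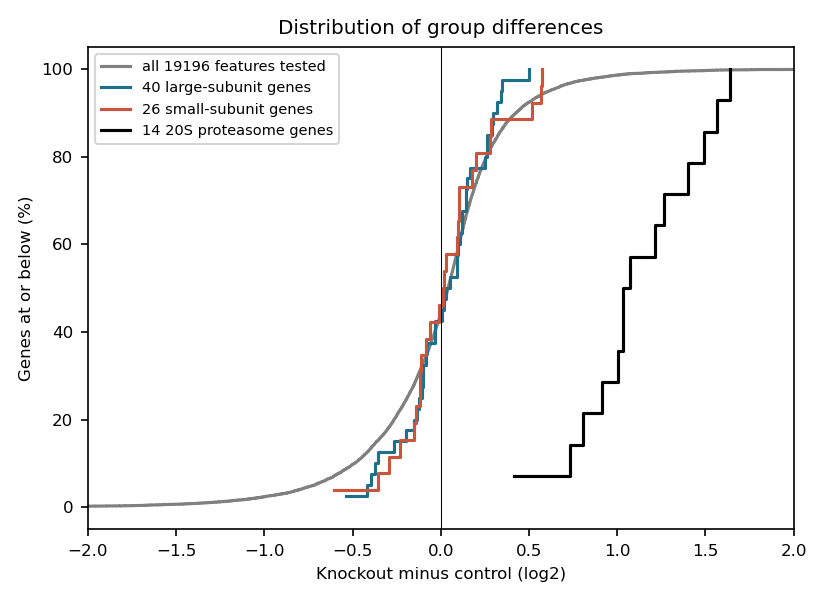
Share of genes (%, y axis) at or below each difference between Rpt3 null and control cells (log2, x axis, shown from -2 to 2) for the 40 large-subunit genes, the 26 small-subunit genes, the 14 genes of the proteasome core and all 19196 features tested. The curves of both subunits cross 50% at 0.04 and 0.01, beside 0.04 for all features and 1.05 for the proteasome core.

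Among the large-subunit genes with bacterial homologues, the smallest p-values belonged to Mrpl24, Mrpl20 and Mrpl32, each with a higher knockout mean. Mrpl24 measured 4.19, 4.22 and 3.71 in the knockout arrays and 3.65, 3.53 and 3.90 in the controls. Knockout arrays 1 and 2 stood above every control, while array 3 lay among them. The difference was 0.34 (SE 0.24, 95% interval -0.20 to 0.89, limma adjusted p = 0.926). Mrpl20, whose bacterial homologue acts early in assembly of the large subunit, measured 2.27, 2.16 and 1.71 in the knockout arrays and 1.95, 1.66 and 1.63 in the controls. Again array 3 alone overlapped the controls, and the difference was 0.30 (SE 0.24). Mrpl32, which is cut to its mature form by the mitochondrial m-AAA protease before it joins the ribosome, measured 2.51, 1.71 and 1.80 in the knockout arrays and 2.19, 1.33 and 1.48 in the controls. Its highest array was knockout array 1 and its difference was 0.34 (SE 0.32, limma adjusted p = 0.974).

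Mrpl4 and Mrpl34 had lower knockout means. Mrpl4 measured 0.75, 1.46 and 0.04 in the knockout arrays and 0.59, 1.55 and 1.17 in the controls, with a difference of -0.36 (SE 0.40). Only array 3 lay below the controls. Mrpl34 measured -1.52, -1.07 and -3.09 in the knockout arrays and -1.60, -1.77 and -1.05 in the controls. It was well above background on 2 of 3 knockout arrays, and its difference of -0.42 (SE 0.50) became 0.18 without array 3.

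Of the mitochondria-specific large-subunit genes, Mrps30 had the smallest p of the whole family. It measured 2.57, 2.90 and 2.16 in the knockout arrays and 2.19, 1.76 and 1.96 in the controls. Arrays 1 and 2 were above every control, and array 3 fell just under the highest of them. The difference was 0.57 (SE 0.26, 95% interval -0.03 to 1.17), with limma's p = 0.0599 before and 0.753 after adjustment (exact permutation p = 0.2). Mrpl51 followed, with 1.64, 1.49 and 0.77 in the knockout arrays and 0.66, 0.83 and 0.91 in the controls. Here array 3 lay between the lowest and the middle control. The difference of 0.50 (SE 0.28, limma adjusted p = 0.844) was 0.77 without array 3 and -0.03 within slide row 2.

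Mrpl48 and Mrpl53, both mitochondria-specific, had lower knockout means with overlapping groups. Mrpl48 measured 3.31, 2.73 and 2.58 in the knockout arrays and 3.31, 2.63 and 3.86 in the controls, a difference of -0.40 (SE 0.36). Mrpl53 measured -1.08, -3.06 and -1.94 in the knockout arrays and -1.53, -0.78 and -2.15 in the controls, a difference of -0.54 (SE 0.54). It was well above background on 1 of 3 knockout arrays and all 3 controls. The other large-subunit genes tested lay between -0.38 (Mrpl44) and 0.32 (Mrpl11).

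Among the small-subunit genes with bacterial homologues, Mrps16 was one of the pair whose groups did not overlap. It measured 0.05, 0.39 and 0.20 in the knockout arrays and -0.05, 0.03 and -0.18 in the controls. The lowest knockout value was only just above the highest control. The difference was 0.28 (SE 0.21, 95% interval -0.20 to 0.76, limma adjusted p = 0.933; exact permutation p = 0.1). Mrps10 measured 7.05, 7.27 and 7.87 in the knockout arrays and 7.34, 7.27 and 7.27 in the controls. Its highest array was knockout array 3 and its lowest knockout array 1, the reverse of the family's median, and its difference was 0.10 (SE 0.26). The 75th percentile subtracted from each array was lowest on knockout array 3 (5.99) and highest on knockout array 1 (6.79). The part of that scaling in the order of the Mrps10 values was not tested.

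Mrps5, whose bacterial homologue bears on decoding accuracy, measured 0.07, -0.62 and -0.80 in the knockout arrays and -0.60, 0.45 and -0.13 in the controls, a difference of -0.35 (SE 0.35). Mrps6 measured 4.87, 5.64 and 5.00 in the knockout arrays and 5.10, 5.54 and 5.55 in the controls, a difference of -0.23 (SE 0.28). Neither pair of groups was apart. Mrps24 gave the most negative difference of the 66 genes tested, -0.61 (SE 0.75), on values of -4.24, -1.59 and -0.97 in the knockout arrays and -1.93, -1.52 and -1.52 in the controls. That difference rested on knockout array 1 and was 0.38 without it. Mrps15 measured -1.10, -1.65 and -1.60 in the knockout arrays and -1.72, -1.12 and -1.48 in the controls, a difference of -0.01 (SE 0.26) whose sign turned with the scaling between arrays (0.0175 with quantile and 0.0233 with median scaling).

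The mitochondria-specific small-subunit genes named by their p-values were Mrps22, Mrps31 and Mrps23. Mrps22, in which mutations cause a human oxidative phosphorylation deficiency, measured 0.90, 0.35 and 0.39 in the knockout arrays and 0.33, -0.54 and 0.17 in the controls. The groups did not overlap, and the difference was 0.57 (SE 0.30, 95% interval -0.12 to 1.26, limma adjusted p = 0.822; exact permutation p = 0.1). Without control array 2, its lowest, the difference was 0.30. Mrps31 measured 0.12, -0.04 and -1.59 in the knockout arrays and -1.19, -0.94 and -0.93 in the controls. Arrays 1 and 2 were above all controls and array 3 below all of them, so the difference of 0.52 (SE 0.44) was 1.06 without array 3 and -0.57 within slide row 2. Mrps23 measured 4.23, 4.74 and 4.67 in the knockout arrays and 4.39, 4.95 and 5.18 in the controls, a difference of -0.29 (SE 0.28) with overlapping groups.

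**Figure D4:**
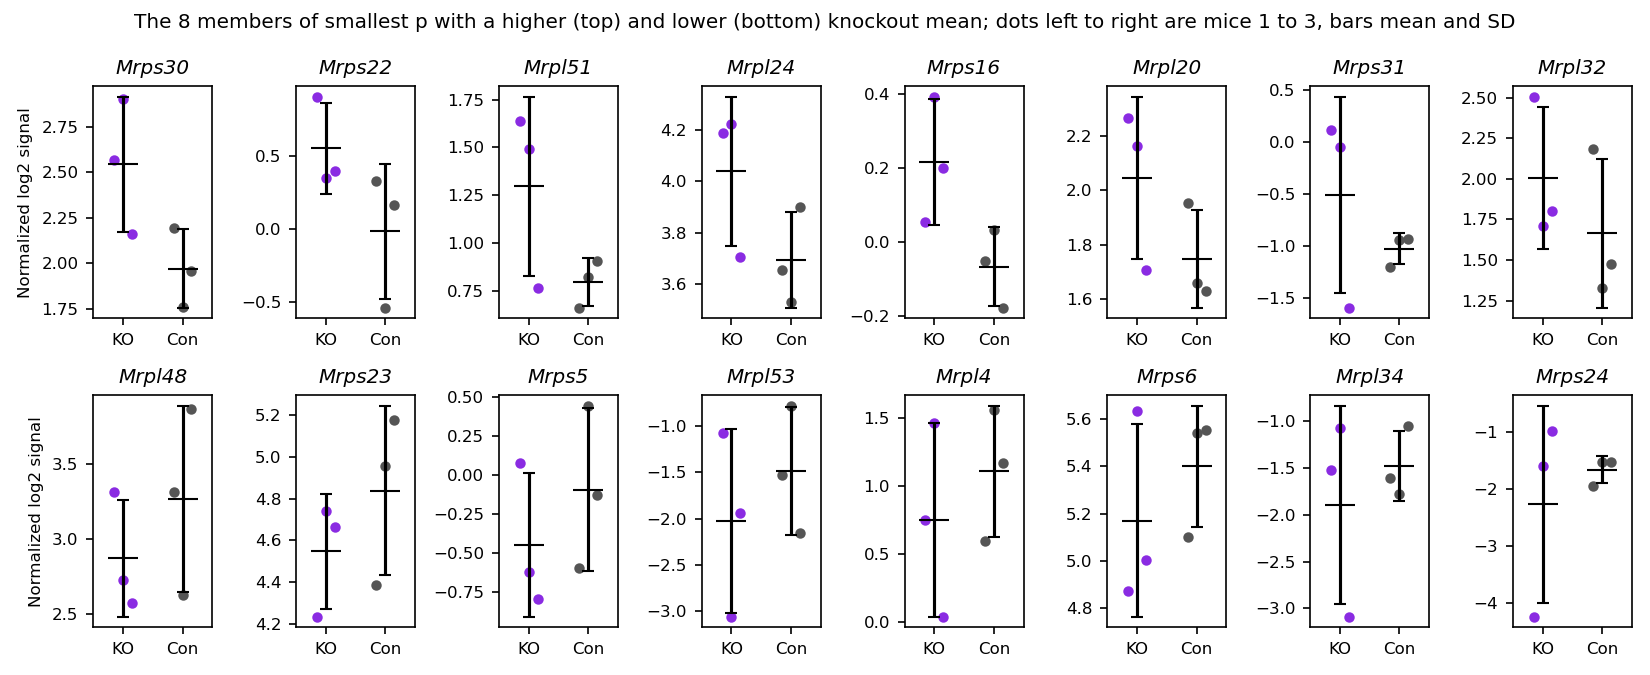
Normalized log2 signal (y axis, a scale of its own in each panel) of the 8 genes with the smallest p among those with a higher knockout mean (top) and a lower one (bottom). Dots from left to right are mice 1 to 3 of Rpt3 null (KO) and control (Con), and bars show mean and SD; only Mrps22 and Mrps16 have groups that do not overlap.

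The 3 paralogues of bacterial S18 sit at different places in the mitochondrial ribosome, Mrps18c at the ancestral site. Mrps18a measured 0.92, 0.59 and -0.47 in the knockout arrays and 0.30, 0.09 and 0.12 in the controls, a difference of 0.18 (SE 0.36). Mrps18b measured 1.72, 1.13 and 1.19 in the knockout arrays and 1.52, 1.24 and 1.63 in the controls, a difference of -0.12 (SE 0.25). Its other probes past the filter, which overlap each other in position, had the opposite sign. They gave 0.26 and 0.23 (limma unadjusted p = 0.252 and 0.317), each higher in the knockout without overlap. Mrps18c measured 0.91, 1.46 and -0.04 in the knockout arrays and 1.21, -0.14 and 0.99 in the controls, a difference of 0.09 (SE 0.47). With the brightest probe of each gene, the groups of all 3 overlapped. For Mrps18a and Mrps18c the sign turned within slide row 2, at -0.64 and -0.72.

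The 10 genes that were not tested were well above background on fewer than 3 arrays of each group. They were Mrpl1, Mrpl19, Mrpl28, Mrpl35, Mrpl39, Mrpl45, Mrpl46, Mrps14, Mrps27 and Mrps35, and all of them overlapped between the groups. Of the 66 tested, 60 were well above background on all 6 arrays. The other 6 genes, Mrpl34, Mrpl38, Mrpl40, Mrpl44, Mrpl53 and Mrps24, passed through the control arrays alone, and their differences were all below 0, as the filter favours. Over the 60 genes the median was 0.07, with 37 above 0 and 23 below. Mrps14, singled out here after its values were seen, measured -0.32, -1.20 and -2.61 in the knockout arrays and -2.69, -3.68 and -1.46 in the controls, and stood well above background on 2 arrays of the knockout and 1 of the control.

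Several probes measured the same gene in 26 cases, and in 20 of them more than 1 probe passed the filter. The median gap between a gene's highest and lowest probe difference was 0.28, nearly the standard error of a single difference. In 10 of the 20 genes the probes had opposite signs, and in 0 of them did both reach an unadjusted p under 0.05. The widest gaps, singled out after the values were seen, are shown with the sequence of the probe that was not used for the gene. Both probes span more of the genome than their 60 bases on mouse build mm9, the build of the array files, and so cross at least one splice junction. They are given 5′ to 3′ in lower case, with nothing marked by capitals.
Mrpl47 probe A_66_P126300, chr3:32629104-32630111, minus strand: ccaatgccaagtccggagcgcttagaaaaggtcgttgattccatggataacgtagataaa
Mrpl22 probe A_51_P322994, chr11:57990734-57992784, plus strand: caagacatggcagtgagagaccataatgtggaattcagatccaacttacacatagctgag

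This Mrpl47 probe measured 0.15, 0.12 and -0.71 in the knockout arrays and -1.18, -0.49 and -0.80 in the controls, a difference of 0.68. The brighter Mrpl47 probe, at chr3:32635967-32636026, measured 0.52, 0.53 and 0.51 against 0.38, 0.63 and 0.96, a difference of -0.14. For Mrpl22, the probe shown gave -1.11, -1.44 and -2.64 in the knockout arrays and -0.96, -1.32 and -0.90 in the controls. Its difference of -0.67 stood beside 0.03 for the brighter probe at chr11:57993002-57993061. The overlapping probes of Mrpl40 gave -0.13 and -0.23, and those of Mrpl23 -0.03 and 0.05. Probes that did not overlap lay about as close for Mrpl27 (0.03 and 0.11) and Mrps23 (-0.29 and -0.20).

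The probes of Mrps31, whose knockout arrays lay on both sides of the controls, and of Mrps5 also span more than 60 bases of mm9. They are shown with no capitals.
Mrps31 probe A_51_P319732, chr8:23538340-23539688, plus strand: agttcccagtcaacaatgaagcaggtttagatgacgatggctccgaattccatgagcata
Mrps5 probe A_51_P493270, chr2:127426599-127427149, plus strand: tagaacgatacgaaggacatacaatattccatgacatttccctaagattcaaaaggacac

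The bases before the genes' starts were read from RefSeq on GRCm38.p6, from 250 bases before to 50 bases after each start, for the 67 of 76 genes that matched by symbol. Exact motif matches on either strand were counted as a description. The ETS motif of GABPA, also called nuclear respiratory factor 2, searched as CCGGAAG, was present in 24 of 67 (35.8%), against 16.6% of 8710 other tested genes and 9.93% of all 27025 promoters. The NRF1 motif, searched as GCGCA and GCGC with any base between them, was present in 12 (17.9%), against 9.64% and 5.19%, and the YY1 motif AAGATGGC in 12 (17.9%), against 4.44% and 3.19%. The other motifs were the CCAAT box in 27 (40.3%, against 42.4% and 41.1%), the E-box CACGTG in 5 (7.46%, against 11.1% and 8.09%) and the antioxidant response element TGACNNNGC in 13 (19.4%, against 16.7% and 13.99%).

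Differences between the cells were close to 0 with and without each motif. The 23 tested genes with the ETS motif had a median of 0.03 and the 36 without it 0.01. For NRF1 the medians were 0.09 (10 genes) and 0.02 (49 genes), and for YY1 they were -0.09 (10 genes) and 0.05 (49 genes). With the antioxidant response element, a site for Nrf2 and Nfe2l1, the median was 0.09 (13 genes), and without it 0.01 (46 genes). With the CCAAT box it was 0.10 (25 genes) against -0.06 (34 genes), and with the E-box 0.09 (5 genes) against 0.02 (54 genes).

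Mrps22, whose groups did not overlap, and Mrpl51, which had the next smallest p, both hold the ETS motif within about 100 bases before their start. They were singled out after their values were seen, and 35.8% of the matched genes hold the motif. Whether Mrps30 or Mrps16 holds it is not given here, and a link between motif and difference was not tested. The bases before each start are shown on GRCm38.p6 as RefSeq gives them, 5′ to 3′ along the gene, with the motif in capitals.
Mrps22, chr9:98601680-98601779, minus strand: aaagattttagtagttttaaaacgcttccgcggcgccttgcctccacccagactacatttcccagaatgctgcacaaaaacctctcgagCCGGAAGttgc
Mrpl51, chr6:125192101-125192199, plus strand: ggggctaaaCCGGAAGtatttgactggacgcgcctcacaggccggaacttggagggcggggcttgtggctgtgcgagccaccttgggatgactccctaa

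Many of the genes start head to head with a neighbour. A gene on the other strand started within 500 bases upstream for 22 of the 67 genes (32.8%), against 14.8% of other tested genes. In 11 such pairs both genes were tested, and in 4 of them the differences had the same sign. Mrpl46 and Mrps11 form a pair within the family, with 41 bases between their starts, and Mrpl32 shares 204 bases with Psma2, a subunit of the proteasome core. Psma2 had a difference of 1.01, beside 0.34 for Mrpl32 from the same stretch. Both stretches are shown on GRCm38.p6 as RefSeq gives them, along the strand of the named gene. Capitals mark the CCAAT box, which reads ATTGG on this strand, and the NRF1 motif. The Mrps11 stretch holds none of the motifs searched.
Mrps11 to Mrpl46, chr7:78783090-78783130, plus strand: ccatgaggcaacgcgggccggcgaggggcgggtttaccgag
Mrpl32 to Psma2, chr13:14613038-14613241, minus strand: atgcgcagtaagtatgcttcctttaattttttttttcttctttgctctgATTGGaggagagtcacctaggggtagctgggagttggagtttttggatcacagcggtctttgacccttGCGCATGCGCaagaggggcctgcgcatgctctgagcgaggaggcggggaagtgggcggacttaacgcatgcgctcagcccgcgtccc

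The other pairs had differences of either sign. Mrps12 (0.03) starts 146 bases from Sars2 (-0.29), the mitochondrial seryl-tRNA synthetase. Mrpl47 (-0.14) starts 307 bases from Ndufb5 (0.17), a subunit of complex I, and Mrpl49 (-0.27) starts 191 bases from Fau (0.09), which encodes a cytosolic ribosomal protein. Mrpl18 (-0.20) starts 237 bases from Tcp1 (0.17), a chaperonin subunit.

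Other parts of the mitochondrial translation system also held 0 genes that passed the test with limma. The 7 mitoribosome proteins with other names had 3 differences above 0 and 4 below, a median of -0.09, and none with an unadjusted p under 0.05. Dap3, the small subunit's GTP-binding protein, had a difference of -0.28 (SE 0.30), and Mrp63 one of 0.21 (SE 0.25). Of 13 translation factors 7 were tested, with 4 above 0 and 3 below and a median of 0.03. Oxa1l, the insertase that receives the nascent chains, had a difference of -0.23, and Gfm2, a factor for ribosome recycling, one of 0.24.

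Of 25 genes for assembly and rRNA modification 17 were tested, with 6 above 0, 11 below and a median of -0.06. Limma's unadjusted p was under 0.05 for 1 of the 17 (5.88%, against 7.1% of all features). That gene was Gtpbp5 (Mtg2), a GTPase of large-subunit assembly, at -0.78, -1.28 and -1.54 in the knockout arrays and -3.69, -1.84 and -2.28 in the controls. The gene passed the filter through the knockout arrays alone, which favours a higher knockout mean, and only 1 of 3 controls measured it well above background. The fitted difference of 1.41 (SE 0.47, limma adjusted p = 0.561) therefore rests on dim control values. Noa1, another assembly GTPase, measured -1.37, -1.12 and -1.77 against -0.54, -1.04 and -0.97, a difference of -0.57 (SE 0.26, limma adjusted p = 0.756) with no overlap. Of 13 genes for mitochondrial transcription and RNA processing 8 were tested, with 3 above 0, 5 below, and a median of -0.06. In 1 of the 8, Rg9mtd1, limma's unadjusted p was under 0.05 (12.5%, against 7.1% of all features). Rg9mtd1 (Trmt10c), the methyltransferase subunit of mitochondrial RNase P, measured -0.10, 0.17 and -0.00038 in the knockout arrays and -0.45, -0.72 and -0.50 in the controls, a difference of 0.58 (SE 0.21, limma adjusted p = 0.604) with no overlap. Polrmt, the mitochondrial RNA polymerase, had a difference of -0.29 (SE 0.23).

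Of 17 mitochondrial aminoacyl-tRNA synthetases 11 were tested, with 4 above 0 and 7 below and a median of -0.09. In 1 of the 11, Vars2, limma's unadjusted p was under 0.05 (9.09%, against 7.1% of all features). Vars2, the valyl enzyme, was not well above background on any knockout array. Its measured mean was at least 3.32-fold lower there than in the controls (limma adjusted p = 0.352). The gene passed the filter through the control arrays alone, which favours a lower knockout mean. The bound takes, on each knockout array, the dimmest probe still well above background, or Vars2 itself where it was brighter. Tars2, the threonyl enzyme, had a difference of 0.43 (SE 0.26). Of 11 nuclear regulators of mitochondrial genes 10 were tested, with 5 above 0, 5 below and a median of 0.02. The coactivators Ppargc1a and Ppargc1b had differences of 0.52 (SE 0.28) and 0.29 (SE 0.23). Of 13 mitochondrial proteases and chaperones 11 were tested, with 7 above 0, 4 below and a median of 0.12. Htra2, a protease of the intermembrane space, had a difference of -0.60 (SE 0.30), and Hspa9, the matrix Hsp70, one of 0.32 (SE 0.20) with no overlap between the groups.

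The messages that the mitochondrial ribosome translates were also on the array. All 13 mitochondrially encoded messages were tested, 3 with a difference above 0 and 10 below, with a median of -0.12, and the 95% interval lay within 2-fold for 13 of 13. COX2 measured 7.31, 7.84 and 7.45 in the knockout arrays and 7.92, 7.76 and 7.78 in the controls, a difference of -0.29 (SE 0.22, limma adjusted p = 0.954). ND1 measured 7.72, 8.25 and 7.93 against 8.45, 8.07 and 8.12, a difference of -0.24 (SE 0.24). The groups overlapped in both. Their array medians did not follow those of the ribosomal protein genes: the 13 messages were lowest on knockout array 1, at -0.31, and were 0.21 and -0.08 on arrays 2 and 3, with 0.31, -0.02 and -0.02 on the controls.

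Other nuclear gene families followed the array pattern of the mitochondrial ribosomal protein genes in part. The 35 complex I subunit genes had array medians of 0.20, 0.13 and -0.32 on knockout arrays 1 to 3, and the 81 cytosolic ribosomal protein genes 0.10, 0.18 and -0.17. Their median differences were 0.01 and 0.07. The 14 genes of the proteasome core had 0.86, 0.68 and 0.09 on the knockout arrays and -0.37, -0.68 and -0.63 on the controls. All 14 were above 0, and 13 had an unadjusted p under 0.05 (2.82% of all features did so with a higher knockout mean). Array 3 was thus the lowest knockout array for that family as well, yet it stayed above every control median.

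**Figure D5:**
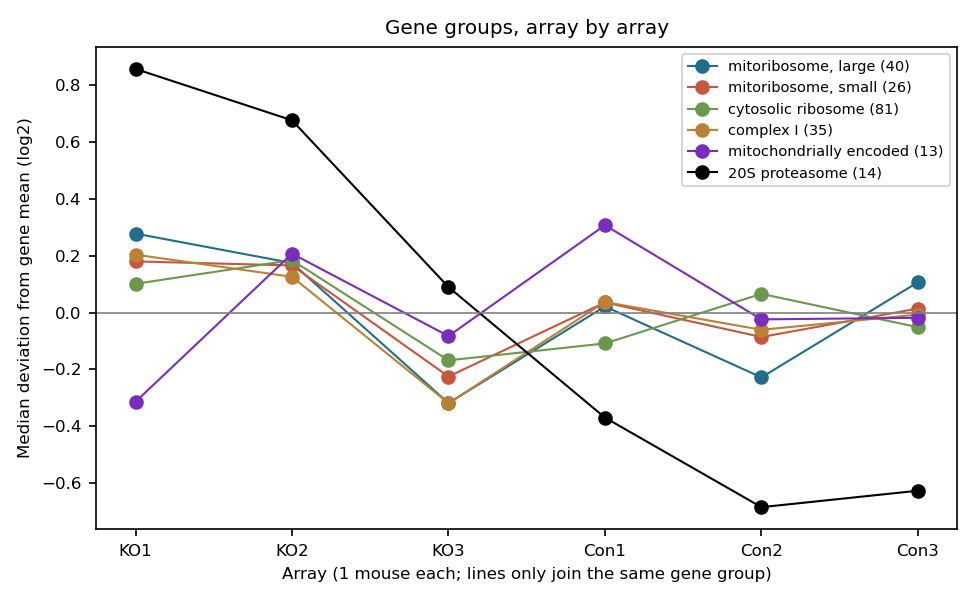
Median deviation from the gene's own mean over the 6 arrays (log2, y axis) for 6 gene groups, by array; lines join the same gene group and mark no order of the mice. Both subunits of the mitochondrial ribosome, complex I and the cytosolic ribosome have their lowest knockout median on array 3 (-0.32, -0.23, -0.32 and -0.17), the mitochondrially encoded messages on array 1 (-0.31).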

How the data were processed

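Each scanner file holds the deposited intensity values of 1 array on a linear scale; the authors' processed signal was corrected for background within the array by Agilent Feature Extraction 10.7.1.1, per the file headers, while the submitters' processing notes give 9.5.1.1. The deposited value table, also intensity, served as an alternative. Spots with outlier flags and control spots were left out, spots of a probe were averaged, and log2 signal minus the array's 75th percentile was taken. Features entered the test if 1 group or both had all 3 arrays well above background. Groups were compared with limma 3.58.1 in R 4.3.3 (data.table package, version 1.17.8), 2-sided, with Benjamini-Hochberg adjustment over 19196 features, after a test of the script on simulated data. The number of arrays, 3 per group, limits the precision. The labels name separate mice and state no pairing; same-numbered arrays had correlated deviations of 0.07, -0.02 and 0.09, too low to treat them as pairs.

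The members and gene lists were chosen with earlier results of these data known; the list of mitochondrially encoded messages was added after the array's gene names were seen. Genes named are, for each direction, the 8 of smallest p, the 4 with the highest and the 4 with the lowest mean normalized signal, the Mrps18 paralogues, Mrps30 and any gene past the threshold or with probes in conflict, and 2 genes of smallest p from each pathway list. Gene names are those of the array files, some of them old, and the list genes Malsu1, Tefm, Slirp and Adgre1 found no match. The erythroid marker list is reported only by its 2 genes of smallest p, and its sum is not reported here. Exon or UTR positions of the probes were not analysed here.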

Additional observations from a re-analysis of the deposited data

How the results depend on the processing

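Under every alternative run, 0 mitochondrial ribosomal protein genes passed an adjusted p of 0.05. For 21 named genes, 438 values were recomputed: 408 kept their sign and 30 turned. Over all features, 1 gene was called higher with normexp and 1 lower with quantile normalization. There were 2 called lower with median scaling, 1 lower with the deposited table, 2 higher and 2 lower with an intensity trend and robust moderation, and 2 lower at an adjusted p of 0.1. Array weights called 80 higher and 113 lower, and slide row 2 alone 38 higher and 1 lower. With the slide row as a block the members' median was -0.27 (large -0.34, small -0.22), and with slide row 2 only it was -0.27 (large -0.30, small -0.22); both set knockout array 3 alone against the controls, assumed to vary like them. In both settings Mrpl51 was -0.033, Mrpl20 -0.0423, Mrps31 -0.57, Mrps24 0.69, Mrps18a -0.64 and Mrps18c -0.72. Array weights gave Mrpl4 0.19, Mrps6 0.11, Mrpl34 0.28 and Mrps10 -0.020. The mean of probes gave Mrps18b 0.12. Mrps15 was 0.0403 with normexp, 0.0175 with quantile, 0.0233 with median scaling and 0.0159 with the deposited table. The causes were not tested.

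Leaving out each array in turn moved the members' median between -0.08 and 0.18 (large -0.10 to 0.26, small -0.08 to 0.11), large minus small between -0.07 and 0.09, and called 0 genes over all features. The signs of 6 named genes turned, over ranges of -0.83 to 0.18 for Mrpl34, -1.25 to 0.38 for Mrps24, -0.13 to 0.27 for Mrps10, -0.18 to 0.15 for Mrps15, -0.11 to 0.59 for Mrps18a and -0.32 to 0.50 for Mrps18c.

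With the replicate number as a replicate block, the members' median stayed 0.02 (large 0.04, small 0.01) with 0 called; the numbers are not known to pair the mice. Large minus small has no value under either block, since it is a difference of medians with no model. Dim probes limit what could be seen: 10 of 76 genes were too dim to test.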
